A study of Mus musculus with 9 samples.

Results

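The immunoglobulin gene segments expressed in mouse hippocampus were examined in bulk RNA sequencing of 9 libraries. A segment was included when the GENCODE annotation of genome build GRCm38 gives it as a variable (V), diversity (D), joining (J) or constant (C) immunoglobulin gene and when its deposited read counts added up to at least 10 over the 9 libraries. Of the 264 annotated segments among 47643 genes in the count matrix, 87 met this rule. They were 28 of 113 heavy chain V, 3 of 4 heavy chain J and 8 of 8 heavy chain C segments, 40 of 102 kappa V, 3 of 5 kappa J and the 1 kappa C segment, and 2 of 3 lambda V and 2 of 4 lambda C segments. None of the 19 heavy chain D and 5 lambda J segments reached the minimum. Members were thus selected on their summed counts, and a segment could enter through the libraries of a single group. The members nearest to the minimum, Igkv1-122 and Igkv2-109, had 11 counts each, and the segments just outside it, Ighv1-12, Igkv13-84, Igkv4-80 and Iglv2, had 9 each. Of the 177 segments below the minimum, 110 had no count in any library.

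The hippocampi were taken at postnatal week 6 from 3 groups of 3 libraries. MRL/mpj libraries are labelled wild type and untreated. MRL/lpr libraries are labelled MRL-lpr and untreated, although the series title speaks of PBS or MSC for this genotype. MRL/lpr+MSC libraries are labelled MRL-lpr and as having received mesenchymal stem cells (MSC). The lpr allele is an insertion in Fas, the gene of a death receptor on lymphocytes, and is carried in the germline by both lpr groups on the MRL/MpJ background given in the methods of the study. The sample labels give the strain of every library as C57BL/6. The source, dose and time of the MSC are not given in the sources used here. The study describes its MRL/mpj and MRL/lpr samples as individual mice. Which lpr group of the sample labels this covers is unsure, given the check in the next paragraph. The sources used here do not say so of the other lpr group, where the spread may be partly technical.

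Total counts ranged from 19475804 to 26912031 per library. Fas had 30 to 43 counts in MRL/mpj, 31 to 65 in MRL/lpr and 19 to 41 in MRL/lpr+MSC, so the gene that carries the allele did not separate the groups. A check against the expression table released with the study went against the labels of the lpr groups: its columns named MRL/lpr 1, 2 and 3 were constant multiples, within 1%, of the libraries labelled MRL/lpr+MSC 1, 2 and 3 for 100% of the 1887 to 1932 genes compared, and matched the libraries labelled MRL/lpr for at most 5.55% of genes. The groups below follow the sample labels. If the lpr labels were exchanged, every statement on MRL/lpr would apply to MRL/lpr+MSC and the reverse, and the comparison between them would change sign. The markers of hippocampal neurons were present in all libraries, with summed levels from 645.4 to 1273 CPM (counts per 1000000, with library sizes scaled by the trimmed mean of M values).

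Immunoglobulins are made by B cells and, in far larger amounts per cell, by the plasma cells that B cells become. Each B cell joins a V segment, a D segment in the heavy chain, and a J segment into one variable exon, which is spliced to a constant gene, so that the descendants of a B cell share one heavy and one light chain V segment. A resting B cell expresses the constant genes Ighm and Ighd (IgM and IgD), and class switching replaces them with one of the IgG, IgE or IgA genes. The MRL/lpr strain is known for autoantibodies and for the accumulation of lymphocytes. In a bulk sample, fewer cells of a type and less RNA per cell cannot be told apart.

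Immunoglobulin RNA was low in MRL/mpj and higher in most libraries of the lpr groups, with wide spread within each. The 87 members summed to 521, 208 and 177 counts in MRL/mpj 1 to 3. In MRL/lpr 1 to 3 they summed to 30357, 7925 and 3714 counts. The MRL/lpr+MSC 1 to 3 sums were 624, 4129 and 1808 counts. All 3 MRL/lpr libraries were above all MRL/mpj libraries, whereas the first MRL/lpr+MSC library was close to the highest MRL/mpj library. Scaled to library size, the summed level was 14.9 ± 9.66 CPM (mean ± SD, n = 3) in MRL/mpj, 519.7 ± 477.7 CPM in MRL/lpr and 101.3 ± 81.8 CPM in MRL/lpr+MSC. MRL/lpr+MSC 2, at 191.7 CPM, lay above MRL/lpr 3, at 156.9 CPM, so the lpr groups overlapped. As the mean of log2 summed CPM, MRL/lpr was 4.88 above MRL/mpj, with a pooled SD of 1.15 between libraries of a group. MRL/lpr+MSC was 2.60 above MRL/mpj (pooled SD 1.09) and 2.28 below MRL/lpr (pooled SD 1.34). No p is given for these sums, because the members were selected on counts from the same libraries.

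**Figure D1:**
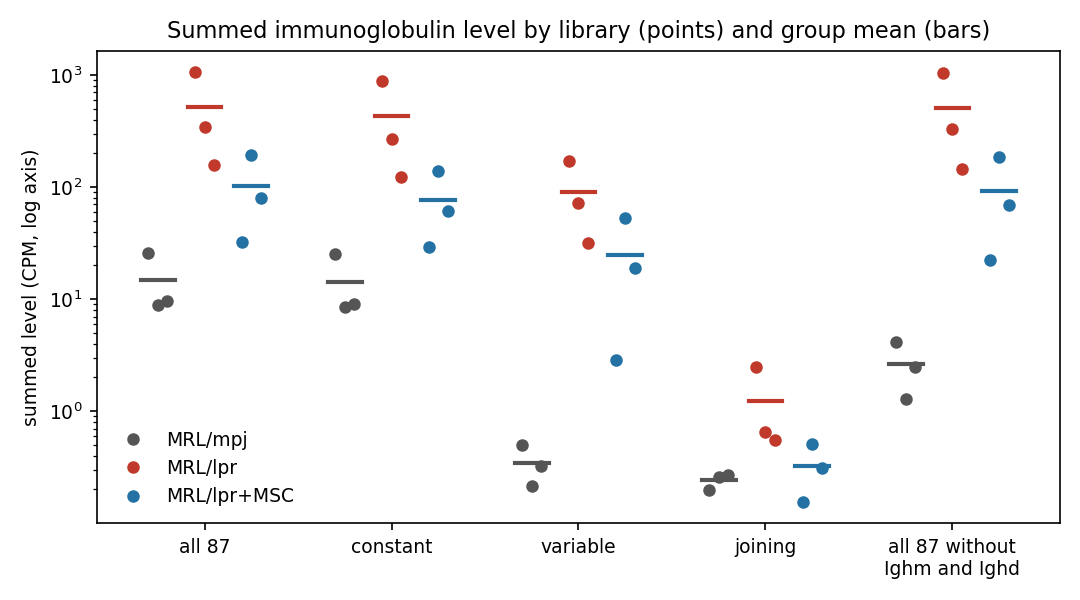
Summed level (CPM, log axis) of all 87 members, of the constant, variable and joining segments, and of the members without Ighm and Ighd. Each point is a library and each bar the mean of 3. For the variable segments the MRL/mpj libraries lie between 0.215 and 0.499 CPM and the MRL/lpr libraries between 32.0 and 170.0 CPM.

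Ighm was the member with the most counts in every MRL/mpj library. Ighm, the constant gene of IgM (chr12:113418558-113422730, minus strand, GRCm38), and Ighd, that of IgD, differed less between the groups than the other heavy chain constant genes with counts in every library. Ighm had 424, 163 and 118 counts in MRL/mpj, 612, 294 and 260 in MRL/lpr, and 182, 143 and 232 in MRL/lpr+MSC. The MRL/mpj values overlapped those of both lpr groups. Ighd had 13 to 15 counts in MRL/mpj, 14 to 25 in MRL/lpr and 8 to 11 in MRL/lpr+MSC. Without Ighm and Ighd, the remaining members summed to 83, 30 and 46 counts in MRL/mpj, 29720, 7609 and 3440 in MRL/lpr, and 431, 3975 and 1568 in MRL/lpr+MSC. MRL/mpj again lay below all 6 lpr libraries. Over all 87 members it already did so, with 26.0 CPM in MRL/mpj 1 and 32.4 CPM in MRL/lpr+MSC 1. Ighm and Ighd were left out after their values were seen, so a wider gap was favoured. In MRL/mpj, Ighm counts were 9.08 to 18.1 times those of Igkc, the kappa light chain constant gene, whereas this ratio was 0.0623 to 0.212 in MRL/lpr and 0.161 to 0.855 in MRL/lpr+MSC. The ratio is of counts, and Ighm has 1886 bases of exon against 532 in Igkc, so part of its size is gene length.

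Igkc (chr6:70726435-70726966, plus strand), which most mouse antibodies use, was the member with the highest summed count. It had 32, 9 and 13 counts in MRL/mpj, 9818, 2228 and 1225 in MRL/lpr, and 213, 889 and 447 in MRL/lpr+MSC. The groups did not overlap in any pair. The 4 IgG constant genes and Igha, the IgA gene used at mucosal surfaces, had high counts in MRL/lpr. Igha had 18, 6 and 7 counts in MRL/mpj, 4249, 1759 and 273 in MRL/lpr, and 76, 145 and 311 in MRL/lpr+MSC. Its MRL/lpr+MSC libraries were above MRL/mpj, and the third was above the lowest MRL/lpr library. Ighg1 had 7, 0 and 0 counts in MRL/mpj, 5597, 641 and 716 in MRL/lpr, and 4, 1742 and 107 in MRL/lpr+MSC. It was the most uneven constant gene in MRL/lpr+MSC, where the first library lay within the range of MRL/mpj and the second had more than 2 of the MRL/lpr libraries. Ighg3 had 1, 2 and 10 counts in MRL/mpj, 3237, 838 and 206 in MRL/lpr, and 25, 19 and 193 in MRL/lpr+MSC. Ighg2b had 1 to 4 counts in MRL/mpj, 55 to 1125 in MRL/lpr and 7 to 36 in MRL/lpr+MSC. Ighg2c had 9, 0 and 1 counts in MRL/mpj, 663, 197 and 182 in MRL/lpr, and 38, 8 and 34 in MRL/lpr+MSC. For Ighg3, Ighg2b and Ighg2c all MRL/lpr libraries were above all other libraries. Ighe, the IgE gene, was near absent, with 0 counts in MRL/mpj, at most 5 in MRL/lpr and 8, 1 and 0 in MRL/lpr+MSC. Reads were assigned to the C57BL/6 reference, whose immunoglobulin loci differ from those of other strains, and how this affects the split among the IgG genes was not tested.

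**Figure D2:**
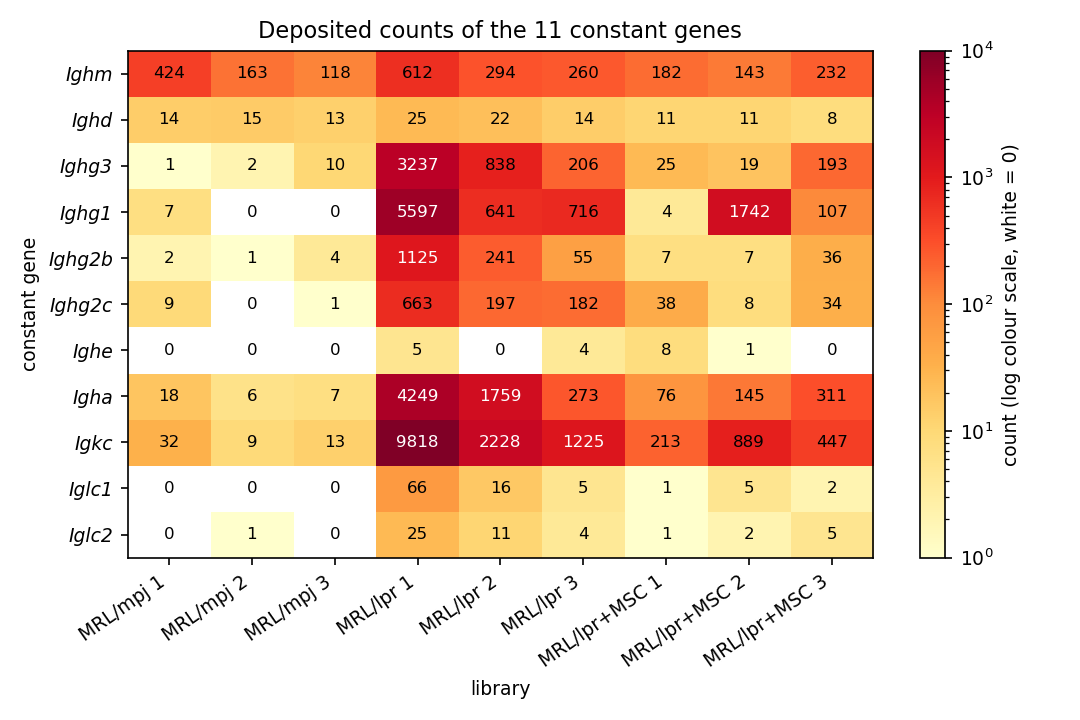
Deposited counts of the 11 constant genes (rows) in the 9 libraries (columns), with the colour on a log scale and white for 0. Ighm runs from 118 to 612 counts and Ighd from 8 to 25, Igkc runs from 9 to 9818 counts, and Ighg1 reaches 1742 counts in MRL/lpr+MSC 2 against 4 in MRL/lpr+MSC 1.

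The make-up of the heavy chain RNA differed in the same way. Ighm held 89.3%, 87.2% and 77.1% of the heavy chain constant counts in MRL/mpj 1 to 3. In MRL/lpr 1 to 3 it held 3.95%, 7.37% and 15.2%. It held 51.9%, 6.89% and 25.2% in MRL/lpr+MSC 1 to 3. The Ighm shares of MRL/mpj were thus all above those of both lpr groups, and the first MRL/lpr+MSC library was nearest to them. The 4 IgG genes together held 1.60% to 9.80% in MRL/mpj, 48.0% to 68.5% in MRL/lpr, and 21.1%, 85.5% and 40.2% in MRL/lpr+MSC. Igha held 15.96% to 44.1% in MRL/lpr and 21.65%, 6.99% and 33.8% in MRL/lpr+MSC 1 to 3. It led the heavy chain constant genes of MRL/lpr 2 and of MRL/lpr+MSC 3. MRL/lpr+MSC 2 stood apart within its group: Ighg1 alone held 83.9% of its heavy chain constant counts (95% Wilson interval 82.3% to 85.4%, counting error only), against 1.14% (0.444% to 2.89%) in MRL/lpr+MSC 1 and 11.6% (9.71% to 13.9%) in MRL/lpr+MSC 3. Reads carried no molecular identifiers, and these intervals do not cover the spread between animals. The counts behind these shares were 153 to 475 per library in MRL/mpj, 1710 to 15513 in MRL/lpr and 351 to 2076 in MRL/lpr+MSC.

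**Figure D3:**
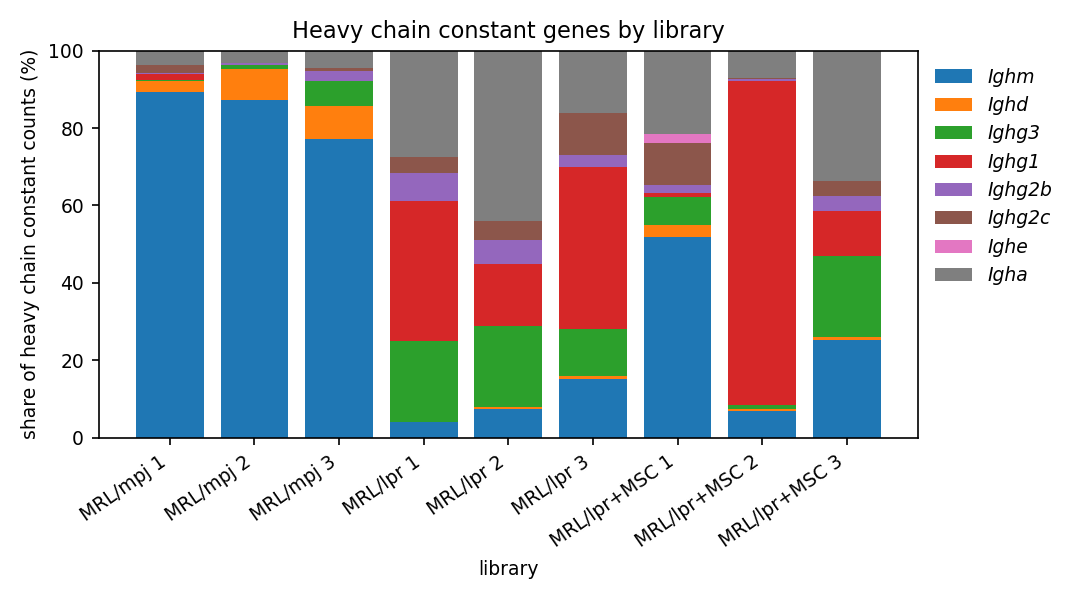
Share (%) of each heavy chain constant gene among the heavy chain constant counts of a library, 1 bar per library. Ighm fills 77.1% to 89.3% of the MRL/mpj bars, and Ighg1 fills 83.9% of the MRL/lpr+MSC 2 bar.

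Light chains were nearly all kappa. Among the light chain V counts, kappa segments held 95.6% to 97.3% in MRL/lpr and 98.0% to 99.0% in MRL/lpr+MSC. Among the light chain constant counts, Igkc held 98.5% to 99.3% over the lpr libraries. Lambda was represented by Iglv1 and Iglv3 and by the constant genes Iglc1 and Iglc2. Iglc1 had 0 counts in all MRL/mpj libraries, 66, 16 and 5 in MRL/lpr and 1, 5 and 2 in MRL/lpr+MSC. Iglc2 had 25, 11 and 4 counts in MRL/lpr and at most 5 in any other library. Iglv3 had 17, 5 and 2 counts in MRL/lpr and 1 count in all other libraries together. Iglc1 and Iglv1 overlap the antisense gene 2010309G21Rik, which itself had 3 counts in all. With no statement that counting used strand, reads from either gene cannot be told apart there.

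V segments carry the diversity of the antibody repertoire, and they were close to absent in MRL/mpj. The 70 V members together had 10, 5 and 6 counts in MRL/mpj, against 4864, 1663 and 757 in MRL/lpr and 55, 1146 and 426 in MRL/lpr+MSC. In MRL/mpj, 54 of the 70 had no count in any library and none had more than 3 counts in a library. In the libraries with many V counts, most counts of a segment often came from a single library. Of the 28 heavy chain V members, 19 had at least 50% of their counts in 1 library, as did 29 of the 40 kappa V members. The library with the highest count of a segment was MRL/lpr 1 for 18 of the 28 heavy chain and 20 of the 40 kappa V members, and MRL/lpr 1 was the library with the most immunoglobulin counts.

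The leading segments differed between libraries, and 6 V exons show the segments on which this turns. Each is the germline coding sequence of the V exon, or its first 300 bases, from the GENCODE vM21 transcripts (GRCm38), printed 5′ to 3′ on the coding strand. This reference is C57BL/6, while the study's methods name the MRL/MpJ background. The names, closest copies, numbers used and positions of V segments given here are those of the reference. How strain differences affect them was not tested. Capitals mark the bases that differ from, or are unmatched in, the closest other annotated V segment of the same locus, since reads from near-identical segments can be assigned to the wrong one. Over the V members, the closest annotated segment was a median 95.1% identical for the heavy chain and 95.5% for kappa, so counts of single segments are uncertain where the closest copy is also expressed. Ighv1-82 and Igkv19-93 are shown because they dominate 1 library, Ighv3-6 and Igkv1-117 because they lead the heavy and kappa V counts of MRL/lpr 1, and Igkv10-96 and Igkv10-94 as near copies that were both counted. Igkv1-110, the closest to Igkv1-117, was itself counted, with 236, 94 and 16 counts in MRL/lpr.
Ighv1-82 (chr12:115952543-115952842, minus strand, closest Ighv1-80 at 96.1% identity): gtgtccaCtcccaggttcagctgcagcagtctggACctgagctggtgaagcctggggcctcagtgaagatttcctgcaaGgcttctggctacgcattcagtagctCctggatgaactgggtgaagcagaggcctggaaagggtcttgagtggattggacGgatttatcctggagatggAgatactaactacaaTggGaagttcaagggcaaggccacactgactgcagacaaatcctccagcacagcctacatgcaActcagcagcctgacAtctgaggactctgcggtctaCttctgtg
Igkv19-93 (chr6:68736297-68736594, minus strand, closest Igkv10-94 at 78.9% identity): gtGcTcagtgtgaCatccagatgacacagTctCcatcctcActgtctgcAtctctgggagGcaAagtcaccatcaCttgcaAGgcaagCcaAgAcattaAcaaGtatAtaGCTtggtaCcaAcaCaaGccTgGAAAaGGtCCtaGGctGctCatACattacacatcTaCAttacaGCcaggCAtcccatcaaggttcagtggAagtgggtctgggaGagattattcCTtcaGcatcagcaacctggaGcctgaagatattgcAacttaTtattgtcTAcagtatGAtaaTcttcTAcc
Ighv3-6 (chr12:114288159-114288458, minus strand, closest Ighv3-1 at 93.5% identity): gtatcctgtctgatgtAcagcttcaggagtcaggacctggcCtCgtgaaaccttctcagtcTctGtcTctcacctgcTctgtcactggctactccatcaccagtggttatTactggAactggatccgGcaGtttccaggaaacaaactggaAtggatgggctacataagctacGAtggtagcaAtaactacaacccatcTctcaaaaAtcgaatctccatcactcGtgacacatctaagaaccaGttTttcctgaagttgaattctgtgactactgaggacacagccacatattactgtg
Igkv1-117 (chr6:68121515-68121814, plus strand, closest Igkv1-110 at 96.8% identity): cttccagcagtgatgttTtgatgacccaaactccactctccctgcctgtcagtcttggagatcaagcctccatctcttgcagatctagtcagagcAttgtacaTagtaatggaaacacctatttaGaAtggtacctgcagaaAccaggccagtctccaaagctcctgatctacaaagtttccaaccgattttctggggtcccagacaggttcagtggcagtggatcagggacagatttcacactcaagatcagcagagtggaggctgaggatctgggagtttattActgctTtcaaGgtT
Igkv10-96 (chr6:68631963-68632260, minus strand, closest Igkv10-94 at 94.6% identity): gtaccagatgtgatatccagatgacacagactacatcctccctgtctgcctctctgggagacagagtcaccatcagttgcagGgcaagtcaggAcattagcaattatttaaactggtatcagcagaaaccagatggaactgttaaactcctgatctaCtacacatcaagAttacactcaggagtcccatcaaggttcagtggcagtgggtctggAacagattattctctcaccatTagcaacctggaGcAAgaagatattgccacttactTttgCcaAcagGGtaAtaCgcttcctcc
Igkv10-94 (chr6:68704508-68704805, minus strand, closest Igkv10-95 at 97.0% identity): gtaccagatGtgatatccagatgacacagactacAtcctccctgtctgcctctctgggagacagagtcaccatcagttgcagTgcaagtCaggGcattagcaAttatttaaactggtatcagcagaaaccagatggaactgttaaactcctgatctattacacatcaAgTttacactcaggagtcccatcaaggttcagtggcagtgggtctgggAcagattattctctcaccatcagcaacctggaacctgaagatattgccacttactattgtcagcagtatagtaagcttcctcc

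MRL/lpr+MSC 2 was dominated by 1 heavy and 1 kappa V segment. Ighv1-82 had 0 counts in every MRL/mpj library, 23, 1 and 2 in MRL/lpr, and 1, 406 and 2 in MRL/lpr+MSC. Shares of V counts here and in the next paragraphs are of the counts of the V members of a locus. It held 93.8% (91.1% to 95.7%) of the heavy chain V counts of MRL/lpr+MSC 2 and at most 1.78% of those of any MRL/lpr library. Igkv19-93 had 0, 0 and 2 counts in MRL/mpj, 51, 19 and 5 in MRL/lpr, and 0, 655 and 11 in MRL/lpr+MSC. It held 92.8% (90.6% to 94.5%) of the kappa V counts of that library, 3.78% (2.12% to 6.64%) in MRL/lpr+MSC 3 and at most 1.49% in MRL/lpr. Both segments were thus high in the same library, in which Ighg1 held 90.6% of the switched (IgG, IgE and IgA) constant counts. The capitals show that Igkv19-93 has no near copy in the annotation, and Ighv1-80, the closest to Ighv1-82, had 0 counts in all 9 libraries. Between the lpr groups, Igkv19-93 differed by 0.11 ± 2.40 (SE) on the log2 scale, and by -2.61 without MRL/lpr+MSC 2.
Other values also set this library apart within its group. The summed level of 6 neutrophil genes was 30.3 CPM in MRL/lpr+MSC 2 and 0.519 to 7.84 CPM in the other 8 libraries, and that of 10 choroid plexus genes was 4955 CPM, against 108.4 and 595.5 CPM in the other libraries of its group. Its 5 red blood cell genes summed to 149.7 CPM, against 27.8 and 36.3 CPM there. Only the neutrophil level was the highest of all libraries. Outside its group, the choroid plexus genes reached 9872 CPM in MRL/lpr 2 and the red blood cell genes 165.3 CPM in MRL/mpj 1. The part of these lists in the immunoglobulin counts was not tested. Without this library, the summed immunoglobulin level of MRL/lpr+MSC is that of its other libraries, 32.4 and 79.9 CPM.

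In the other lpr libraries with many counts, several segments led. Those named here and not among the 3 most counted of their locus, such as Ighv5-17, Ighv5-16, Ighv5-9, Ighv8-8, Igkv2-112 and Igkv6-20, were chosen after their values were seen. Ighv3-6 had 364, 28 and 37 counts in MRL/lpr, 1, 0 and 58 in MRL/lpr+MSC, and 1 count in MRL/mpj. It led the heavy chain V counts of MRL/lpr 1 with 28.2% and of MRL/lpr+MSC 3 with 44.6%, and was second in MRL/lpr 3 with 21.5%. Ighv5-17 led MRL/lpr 2 with 12.7%, and Ighv5-16 led MRL/lpr 3 with 22.7%. Among other heavy chain V segments, Ighv8-8 had all of its 21 counts in MRL/lpr 3, and Ighv5-9 all of its 48 counts in MRL/lpr 1. Ighv1-84 had 141, 12 and 6 counts in MRL/lpr and 6 in all other libraries together.

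For kappa, Igkv1-117 had 780, 141 and 8 counts in MRL/lpr, 0, 6 and 4 in MRL/lpr+MSC, and none in MRL/mpj. It led MRL/lpr 1 with 22.8% of the kappa V counts and held 10.9% in MRL/lpr 2. Igkv10-96 had 490, 214 and 27 counts in MRL/lpr, 0, 3 and 46 in MRL/lpr+MSC, and none in MRL/mpj, and led MRL/lpr 2 with 16.6% and MRL/lpr+MSC 3 with 15.8%. Its near copy Igkv10-94 had 198, 132 and 22 counts in MRL/lpr and 0, 3 and 30 in MRL/lpr+MSC. The 2 were counted in the same libraries, and the sequences above differ at 16 bases as aligned, so part of the counts of either could belong to the other. Igkv2-112 led MRL/lpr 3 with 13.9%, and 79 of its 82 counts came from that library. Igkv6-20 led MRL/lpr+MSC 1 with 60.4% (46.3% to 73.0%), on 29 of 48 counts. The heavy chain V members had only 6 counts in that library, and Ighv1-12, which is below the minimum, had 6 more.

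The number of V segments used also differed. With a segment counted as used at 1 count or more, MRL/lpr 1 to 3 used 43, 40 and 29 of the 113 heavy chain V segments, and MRL/lpr+MSC 1 to 3 used 6, 12 and 25. MRL/mpj used 4, 2 and 0. For kappa, MRL/lpr used 56, 47 and 37 of 102 segments, MRL/lpr+MSC used 8, 19 and 37, and MRL/mpj used 4, 3 and 6. These numbers follow the V counts, which ran from 12 to 1332 for the heavy chain and from 50 to 3475 for kappa over the lpr libraries. At an equal depth of 12 heavy chain counts, the expected number was 7.51 to 9.02 in MRL/lpr and 6, 1.77 and 6.17 in MRL/lpr+MSC. At 50 kappa counts, it was 16.1 to 19.7 in MRL/lpr and 8, 4.30 and 20.5 in MRL/lpr+MSC. At equal depth, MRL/lpr+MSC 3 was therefore within or above the MRL/lpr range for kappa, and MRL/lpr+MSC 2 was the lowest for both loci. The effective number of segments (the inverse of the summed squared shares) was 8.82 to 16.5 for the heavy chain and 9.36 to 13.8 for kappa in MRL/lpr. It was 1.15 and 1.17 in MRL/lpr+MSC 2, and 4.67 and 15.2 in MRL/lpr+MSC 3.

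**Figure D4:**
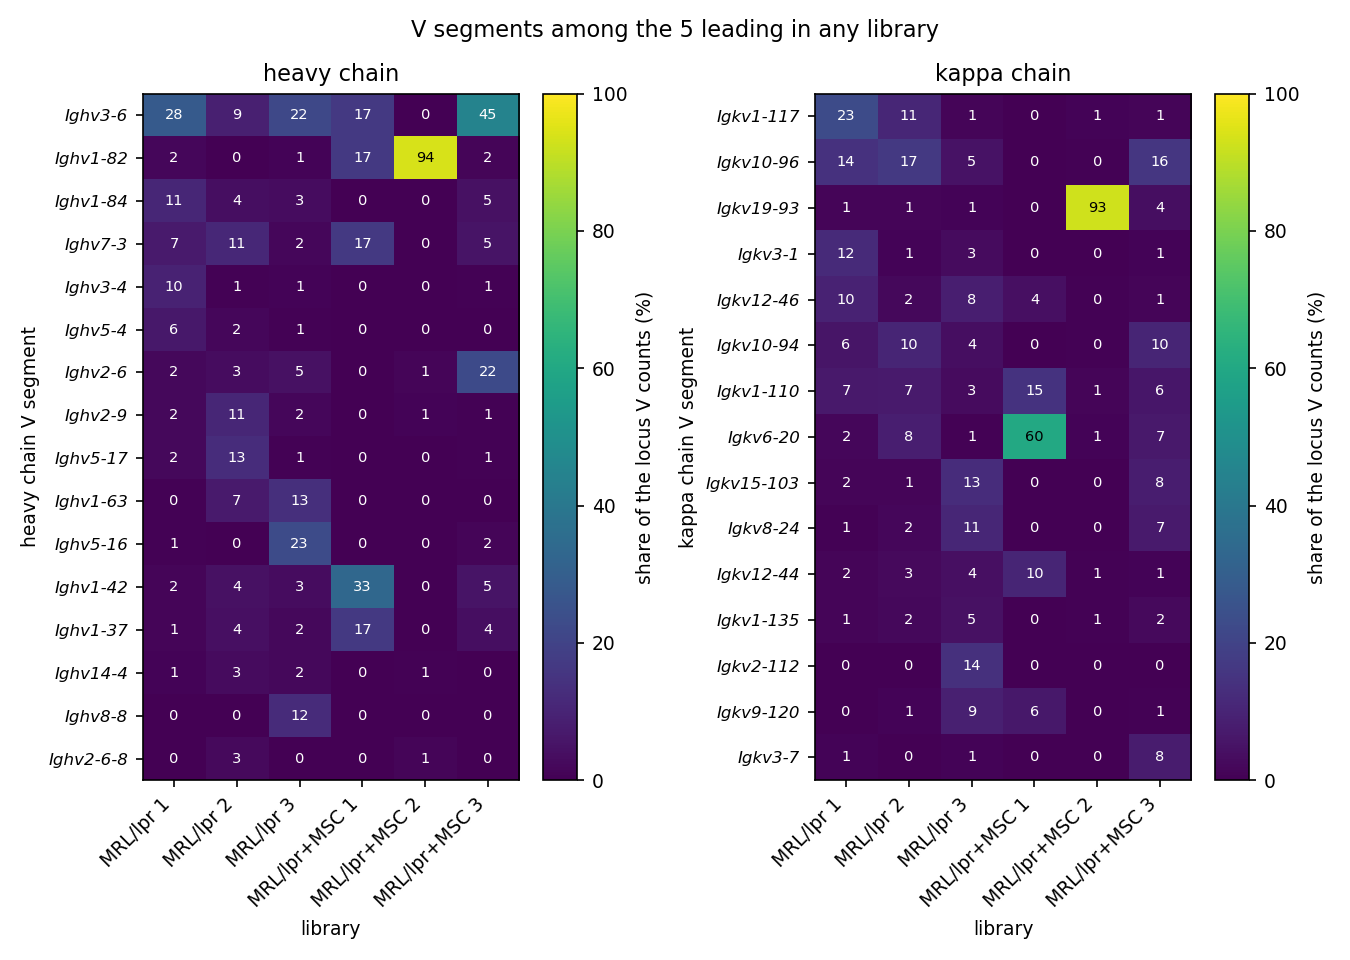
Share (%) of each V segment among the V counts of its locus in the 6 lpr libraries, for the heavy chain (left) and kappa (right), for members among the 5 leading in any library. Ighv1-82 and Igkv19-93 fill MRL/lpr+MSC 2 with 93.8% and 92.8%. Igkv6-20 fills 60.4% of the kappa column of MRL/lpr+MSC 1, which rests on 48 counts. The heavy chain column of that library rests on 6 counts. The other columns are spread over several segments.

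**Figure D5:**
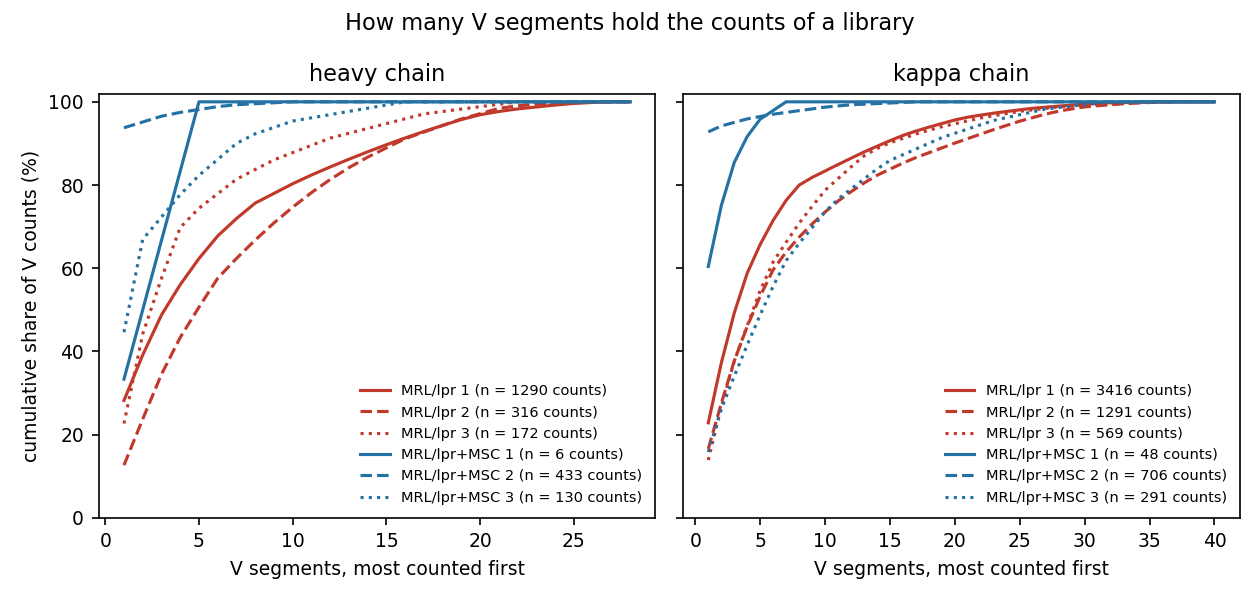
Cumulative share (%) of V counts against the number of V members, most counted first, for the heavy chain (left) and kappa (right), 1 line per lpr library. The first segment holds over 92% in MRL/lpr+MSC 2, while the 5 leading segments of MRL/lpr 2 hold 50.6% of the heavy chain and 53.3% of the kappa V counts.

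The leading segments were shared in part. Of the 5 leading kappa V segments, MRL/lpr 1 and 2 shared 3, MRL/lpr 1 and 3 shared 1 and MRL/lpr 2 and 3 shared 0. For the heavy chain these pairs shared 2, 1 and 2. Over all pairs of lpr libraries the number shared ran from 0 to 3 at both loci, and pairs across the lpr groups also reached 3. Segments with at least 3 counts were shared more widely: 26 kappa V members reached 3 counts in both MRL/lpr 1 and 2, of 32 in the first and 33 in the second. By V subgroup, the 3 members of heavy chain subgroup 3 held 43.3% of the heavy chain V counts of MRL/lpr 1 and 46.2% of those of MRL/lpr+MSC 3. Subgroup 1, with 10 members, held 19.5% to 31.3% in MRL/lpr and 94.2% in MRL/lpr+MSC 2. By position, the 56 of 113 heavy chain V segments nearest to the J segments held 64.6% to 80.8% of the heavy chain V counts in MRL/lpr and 16.7%, 6.21% and 74.3% in MRL/lpr+MSC 1 to 3, of which the first rests on 12 counts. Ighv1-82, which leads MRL/lpr+MSC 2, is number 111 of 113 counted from the J segments. For kappa the 51 of 102 nearer segments held 33.4% to 43.3% in MRL/lpr and 78.0%, 3.11% and 40.7% in MRL/lpr+MSC 1 to 3. These shares by position are of the counts of all annotated V segments.

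J segments are only 38 to 54 bases long and gave few counts. The 6 J members together had 4, 6 and 5 counts in MRL/mpj, 71, 15 and 13 in MRL/lpr, and 3, 11 and 7 in MRL/lpr+MSC. Ighj4 had 21, 4 and 3 counts in MRL/lpr and 1 in MRL/mpj. Ighj1 had 1, 4 and 2 counts in MRL/mpj and 5, 0 and 2 in MRL/lpr, so its groups overlapped. Igkc and the 3 kappa J members overlap the noncoding gene Gm30211 on the same strand, which had 14 counts in all.

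Most members were too low to test. Genes were tested with limma voom and Benjamini-Hochberg adjustment over every gene above a low-count filter. A call needed an adjusted p under 0.05 and a fold change of 1.5 or more. In MRL/lpr against MRL/mpj, 19 of the 87 members passed the filter. Except for Ighm and Ighd, they passed it through the MRL/lpr libraries and so had to be higher there, and their number is no support for a difference. Of them 8 were called higher and none lower, against 3.41% of 16697 genes called higher and 2.38% lower. The called members were Ighg2c, Iglv1 and the kappa segments Igkv1-135, Igkv12-44, Igkv8-24, Igkv15-103, Igkv10-94 and Igkv12-46. Igkv1-135 had 0 counts in MRL/mpj and 46, 27 and 26 in MRL/lpr, at least 8.76-fold higher than 3 counts per MRL/mpj library would give (adjusted p = 0.00121). Igkv12-44 had 0 counts in MRL/mpj and 53, 34 and 23 in MRL/lpr, at least 9.70-fold higher (adjusted p = 0.00233). These were the called members with the most even counts among the MRL/lpr libraries. Igkv8-24 (23, 24 and 62 counts) was at least 10.1-fold higher (adjusted p = 0.00843) and Igkv15-103 (52, 19 and 73 counts) at least 12.9-fold (adjusted p = 0.00907). Both were highest in MRL/lpr 3, unlike most members. Igkv10-94 was at least 30.6-fold higher (adjusted p = 0.0403), and Igkv12-46, with 327, 29 and 48 counts, at least 33.3-fold (adjusted p = 0.0468). Ighg2c rose by a log2 fold change of 6.99 ± 1.60 (SE, adjusted p = 0.0464). Iglv1 had 1 count in MRL/mpj and 141, 51 and 14 in MRL/lpr, a ratio of 168.3 with a counting interval of 29.9 to 6678 (adjusted p = 0.0457). Leaving out any 1 of the MRL/mpj libraries left 2 members called, Igkv1-135 and Igkv12-44. Iglv1 and Igkv10-94 also lost the call without MRL/lpr 1 (adjusted p = 0.0606 and 0.0865), Iglv1 without MRL/lpr 2 (0.0582), and Ighg2c and Igkv12-46 without MRL/lpr 3 (0.0648 and 0.0965). Without MRL/lpr 1, 2 or 3, the members called were 12, 8 and 25.

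The members with the most counts were not among the called ones, and their MRL/lpr libraries differed widely. For Igkc the fitted log2 difference was 7.28 ± 2.22 (adjusted p = 0.0855), for Ighg1 9.86 ± 3.99 (0.155), for Igha 6.79 ± 3.34 (0.221), for Ighg3 7.73 ± 3.95 (0.238) and for Ighg2b 6.42 ± 3.01 (0.204). Without MRL/lpr 1, Igkc passed (log2 fold change 6.52, adjusted p = 0.0331), as did Ighg1 (8.91, 0.0170) and Ighv3-6 (5.31, 0.0170). Without MRL/lpr 3, Igha (7.84, 0.0167) and Igkv10-96 (9.05, 0.00756) passed. Without any 1 MRL/mpj library, the adjusted p was 0.208 to 0.238 for Igkc, 0.331 to 0.422 for Ighg1 and 0.408 to 0.425 for Igha. Ighm, at 0.59 ± 0.48 (adjusted p = 0.443), and Ighd, at 0.20 ± 0.30 (adjusted p = 0.679), were not called. As counts without a test, 61 of the 87 members had all MRL/lpr libraries above all MRL/mpj libraries, against 17.9% of the 22631 genes with the same minimum count. Members chosen on summed counts can enter this number by being high in MRL/lpr alone.

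In MRL/lpr+MSC against MRL/mpj, which shares the MRL/mpj libraries with the comparison above, 5 members passed the filter and 0 were called, against 1.93% of 16196 genes called higher and 1.5% lower. Of the 5, 3 (Igha, Igkc and Ighg3) had an unadjusted p of limma voom under 0.05, as had 22.9% of all genes tested. These 3 passed the filter through the MRL/lpr+MSC libraries, so a higher value there was favoured and their number is no support for a difference. Igha differed by 3.99 ± 0.86 on the log2 scale (limma voom adjusted p = 0.0510) and Igkc by 4.78 ± 1.13 (adjusted p = 0.0644). Both were higher in 3 of 3 libraries than in any MRL/mpj library with an adjusted p just above the threshold. Igha was called without MRL/lpr+MSC 1 (adjusted p = 0.0147) or 3 (0.0335), and Igkc without MRL/lpr+MSC 1 (0.0307) or 2 (0.0353). Igha was not called without MRL/lpr+MSC 2 (0.123), without any 1 MRL/mpj library (0.173 to 0.201) or in the joint fit of 9 libraries (0.518). Igkc was not called without MRL/lpr+MSC 3 (0.135), without any 1 MRL/mpj library (0.197 to 0.212) or in the joint fit (0.246). Ighg3 had 3.79 ± 1.46 (adjusted p = 0.186), Ighm -0.18 ± 0.46 (0.858) and Ighd -0.52 ± 0.31 (0.363). All libraries of MRL/lpr+MSC lay above all of MRL/mpj for 13 of the 87 members, against 13.4% of genes. Ighv1-82 was not tested in this comparison, as its counts came from 1 library.

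In MRL/lpr+MSC against MRL/lpr, 23 members passed the filter and 0 were called, and of 16758 genes 0% were called higher and 0% lower by limma voom. At an unadjusted p under 0.05 there were 10 of the 23 members and 3.86% of all genes. Many of the 23 passed the filter through the MRL/lpr libraries, so a lower value in MRL/lpr+MSC was favoured and the count of 10 is no support for a difference. All 10 were lower in MRL/lpr+MSC, with adjusted p of 0.921 each. Igkv12-44 had the smallest unadjusted p of limma voom (0.000594), with 53, 34 and 23 counts in MRL/lpr and 5, 4 and 3 in MRL/lpr+MSC, a log2 fold change of -2.77 ± 0.45. Ighg2c differed by -3.50 ± 0.92 on the log2 scale, Igkv1-135 by -3.42 ± 0.80 and Igkc by -2.47 ± 0.81, and these were among the 10. For 27 of the 87 members all MRL/lpr+MSC libraries lay below all MRL/lpr libraries, against 5.75% of genes. Selection on summed counts favours this number, since a member can enter by being high in MRL/lpr alone. That no member passed the threshold does not show that the groups were alike.

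B cell and plasma cell genes were given beside these values. Of 17 B cell genes, 9 were tested in MRL/lpr against MRL/mpj and 2 rose, against 3.41% of all genes tested called higher. The 2 passed the low-count filter through the MRL/lpr libraries, so a higher value there was favoured. Among them was Cd79a, a signalling chain of the B cell receptor, with 14, 4 and 3 counts in MRL/mpj, 68, 36 and 28 in MRL/lpr, and 2, 16 and 13 in MRL/lpr+MSC. All its MRL/lpr libraries were above all others (log2 fold change 2.51 ± 0.58 against MRL/mpj, adjusted p = 0.0446). Ms4a1, which encodes CD20, had 1, 1 and 3 counts in MRL/mpj, 18, 10 and 6 in MRL/lpr, and 0, 0 and 3 in MRL/lpr+MSC. The summed level of the B cell list was 9.58 to 12.8 CPM in MRL/mpj, 13.8 to 24.7 CPM in MRL/lpr and 9.18 to 12.2 CPM in MRL/lpr+MSC.

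Of 11 plasma cell genes, 10 were tested in MRL/lpr against MRL/mpj and 0 were called, with a median log2 difference of 0.75 in this list and 0.02 over all genes tested. Jchain, which links IgM and IgA into polymers, had 17, 8 and 13 counts in MRL/mpj, 3148, 863 and 447 in MRL/lpr, and 88, 258 and 204 in MRL/lpr+MSC. The 3 groups did not overlap. It rose in MRL/lpr+MSC against MRL/mpj (log2 fold change 3.74 ± 0.66, adjusted p = 0.0294), the only one of 8 tested plasma cell genes to do so, and was not called in MRL/lpr against MRL/mpj (6.17 ± 2.05, adjusted p = 0.103). Over all genes tested, 1.93% were called higher in MRL/lpr+MSC against MRL/mpj. Mzb1, a chaperone of immunoglobulin assembly, had 0 to 3 counts in MRL/mpj, 181, 56 and 23 in MRL/lpr, and 4, 8 and 12 in MRL/lpr+MSC, and was not called (4.86 ± 1.33, adjusted p = 0.0686). Sdc1, which encodes the plasma cell surface marker CD138 and is also made by other cells, had 25 to 34 counts in MRL/mpj, 39 to 87 in MRL/lpr and 18 to 41 in MRL/lpr+MSC. Rag1, which cuts the segments for joining, had 3 to 9 counts in every library. Of the 8 genes of the pre-B cell and recombination list, 1 was tested in each comparison and 0 were called. Of 10 genes of immunoglobulin receptors, 7 were tested in MRL/lpr against MRL/mpj and 0 were called.

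Markers of other cells moved with the immunoglobulin segments in part. Of 13 T cell genes, 11 were tested in MRL/lpr against MRL/mpj and 7 rose, against 3.41% of all genes tested called higher. Among the 7 was Cd3e, with 0 to 2 counts in MRL/mpj and 68, 37 and 17 in MRL/lpr. The 7 passed the low-count filter through the MRL/lpr libraries, so a higher value there was favoured and their number is no support for a difference. The summed T cell level was 2.40 to 3.00 CPM in MRL/mpj, 9.59 to 31.9 CPM in MRL/lpr and 3.63 to 6.67 CPM in MRL/lpr+MSC. Within MRL/lpr, the libraries fell in the same order as in the immunoglobulin sum. Within MRL/lpr+MSC they did not: MRL/lpr+MSC 3 had the highest T cell level and MRL/lpr+MSC 2 the highest immunoglobulin sum. The 7 meningeal fibroblast genes summed to 62.97 to 170.0 CPM in MRL/mpj, 98.5 to 255.7 CPM in MRL/lpr and 62.2 to 114.6 CPM in MRL/lpr+MSC. The 10 choroid plexus genes summed to 175.7 to 723.5 CPM in MRL/mpj, and to 1114, 9872 and 139.2 CPM in MRL/lpr 1 to 3, of which MRL/lpr 1 had the highest immunoglobulin level. The 5 red blood cell genes, as a sign of blood left in the tissue, summed to 58.4 to 165.3 CPM in MRL/mpj, 52.7 to 102.2 CPM in MRL/lpr and 27.8 to 149.7 CPM in MRL/lpr+MSC, so the groups overlapped. Among these lists, with Cd3e and Hbb-bt picked after their values were seen, Hbb-bt was called lower in MRL/lpr and in MRL/lpr+MSC against MRL/mpj, and of 6 hippocampal neuron genes 2 were called lower in MRL/lpr and 1 in MRL/lpr+MSC. No gene of the neutrophil, choroid plexus and meningeal lists was called in any comparison. Their part in the immunoglobulin results was not tested.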

How the data were processed

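The 9 libraries were poly(A) selected and sequenced by the authors. Per the study's methods, reads were aligned with STAR and counted per gene with HTSeq, while the submitters' processing notes name TopHat2 and GRCm38. Whether counting used strand is not given in the sources used here. The authors deposited 1 matrix of raw counts, used for every result, and an FPKM table per library, computed from counts and gene length. The FPKM tables served only to check that each of the 9 follows its own counts, over 13655 genes. Total counts were 19475804 to 26912031.

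Symbols of 47224 of 47643 genes matched GENCODE vM21. Members and lists were chosen with earlier results of these data known. CPM used library sizes scaled by the trimmed mean of M values (trims 30% and 5%). Each comparison was fitted to its 6 libraries with limma 3.58.1 (voom, robust moderation) in R 4.3.3, with Benjamini-Hochberg adjustment, after a filter on low counts (minimum count 10, total 15). A count model had been planned as the main test and another as an alternative. Both were left out because the bar-separated layout of the matrix kept its unit from being recorded as counts. Its values were whole numbers, and voom, which also takes counts, took their place. In simulated counts, 193 of 200 genes changed 3-fold were recovered for MRL/lpr against MRL/mpj (16488 genes), 197 for MRL/lpr+MSC against MRL/mpj (16013 genes) and 193 for MRL/lpr+MSC against MRL/lpr (16555 genes). Of the unchanged genes, 9, 7 and 8 were called. The simulation gave every gene the same small spread between libraries, below that of the summed members (519.7 ± 477.7 CPM in MRL/lpr). Its recovery therefore does not describe how well changes in the members are detected. A bound against libraries at 0 used 3 counts per library. V exons were aligned pairwise within a locus. Named genes were all constant members, up to 10 other called members, the 3 most counted V members per locus, the members at the edge of the minimum, the called genes of 4 lists (B cell, plasma cell, recombination, receptors) and a few genes fixed by name (Cd79a, Ms4a1, Jchain, Mzb1, Sdc1 and Rag1, with others not reported here). Alternatives were other size factors, filters, a joint fit, the replicate block and leaving out each library. Limma-trend, library quality weights and sums without Ighm and Ighd were added after seeing the data.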

Additional observations from a re-analysis of the deposited data

Results flagged for a closer look

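Immunoglobulin pseudogenes and genes of the biotype IG_LV, 165 in the annotation, are outside the segments reported above. They summed to 0 counts in all MRL/mpj libraries, 251, 42 and 10 in MRL/lpr, and 16, 1 and 5 in MRL/lpr+MSC, so they showed a signal above the control libraries in data the comparisons do not use. Ighv1-14 held most of it, with 209, 32 and 6 counts in MRL/lpr and 13, 1 and 4 in MRL/lpr+MSC, and Ighv1-62 had 27, 4 and 4 counts in MRL/lpr and 0 elsewhere.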

How the results depend on the processing

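Of the named members, 2 changed direction, neither of them called: Ighm in MRL/lpr+MSC against MRL/mpj (-0.18 on the log2 scale, -0.49 to 0.36 with a library left out, above 0 without MRL/mpj 1) and Igkv19-93 in MRL/lpr+MSC against MRL/lpr (0.11, -2.61 to 2.37 with a library left out, below 0 at -0.65 without MRL/lpr 3 and -2.61 without MRL/lpr+MSC 2). None was called in MRL/lpr+MSC against MRL/lpr under any alternative. The 8 members called in MRL/lpr against MRL/mpj became 19 with no filter, 1 at a minimum count of 30, 17 with limma-trend and 13 with library quality weights, and 2 to 25 when 1 library was left out. For MRL/lpr+MSC against MRL/mpj the 0 called became 3 with no filter, 1 at a minimum count of 30, 1 with all 9 libraries in one fit, 2 with limma-trend, 2 with quality weights, and 0 to 3 when 1 library was left out. Igkv1-135 and Igkv12-44 kept their calls in every alternative that tested them, while with no filter Ighg2c (adjusted p = 0.0725), Igkv10-94 (0.0658), Igkv12-46 (0.0810) and Iglv1 (0.0588) lost theirs, as did Igkv10-94 in the joint fit (0.0516). Genes called over the whole table numbered 967 for MRL/lpr against MRL/mpj (2065 with quality weights, 165 to 1695 with a library left out) and 556 for MRL/lpr+MSC against MRL/mpj (1177 with quality weights, 193 to 1514 with a library left out). The difference in summed level between MRL/lpr and MRL/mpj, 4.88 on the log2 scale, was 7.80 over V segments and 7.27 without Ighm and Ighd. That between MRL/lpr+MSC and MRL/mpj, 2.60, was 5.44 and 4.79. Other alternatives moved these sums by less than 1 SD. The cause of these changes was not tested. The shares of heavy chain constant genes above are of counts. Taken per exon length, 53 shares stayed within their counting interval and 19 moved outside it. Ighg2c in MRL/lpr 3 went from 10.6% to 17.9%.

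Samples with the same replicate number did not deviate together in every pair (r from -0.207 to 0.468 over 13655 genes), so the numbers were not taken as pairing. With the replicate block, 17 members were called in MRL/lpr against MRL/mpj and 3 in MRL/lpr+MSC against MRL/mpj, among 1333 and 280 genes in all.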
